A study of Mus musculus with 12 samples.

Results

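The effect of adding IFNa (mouse interferon alpha) to antiPD1 (an antibody that binds PD-1, a checkpoint receptor) was described by comparing 3 libraries given both agents, called combination, with 3 libraries given antiPD1 alone. The comparison covered 14162 of the 21878 genes in the count table, those with at least 10 counts in at least 3 of these 6 libraries. The study sequenced total RNA in 12 libraries, and the other 6 were untreated or given IFNa alone. All 4 groups carry the labels Hepa1-6, a cell line from a mouse hepatoma, and liver. Neither dose, duration, strain nor age is given in the labels used here. Nor is it given whether replicates were separate animals or cultures, so p-values measure only the spread between these samples, which may be technical. No gene passed the main test, edgeR's quasi-likelihood F test over all 14162 genes, so every fold change below is a value that did not pass it.

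Interferon alpha binds the receptor pair Ifnar1 and Ifnar2, whose kinases activate a transcription factor complex that binds interferon-stimulated response elements (ISREs) in the promoters of antiviral genes. PD-1 is a receptor on activated T cells that restrains them when it meets its ligands, and antibodies against it lift that restraint. Tumour tissue also answers to oxygen: when it is scarce, hypoxia-inducible factor (HIF) is stabilised and raises transcription of glucose transporters, glycolytic enzymes and the vessel growth factor Vegfa.

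The 6 libraries held 32.7 to 35.1 M (mega) counts each. Expression is given as CPM (counts per M, scaled by the trimmed mean of M values, TMM), always in the order of replicates 1, 2 and 3. Hepatoma transcripts were abundant, such as the fetal serum protein Afp with 5758, 6916 and 5697 CPM in combination and 7323, 6247 and 7468 in antiPD1 libraries. Transcripts of T cells, macrophages, fibroblasts and endothelium were present as well, so the libraries did not hold RNA of hepatoma cells alone. In such bulk RNA, fewer cells of a type and less RNA per cell cannot be told apart. One library stood apart: antiPD1 replicate 3 lay at -65.5 on the first principal component of the 6 libraries, which carried 54.1% of the variance, against -21.8 to 38.5 for the other 5. It also had the highest summed level of macrophage, T cell, adult hepatocyte and Y-linked genes. Results are therefore given with all 6 libraries and without antiPD1 replicate 3.

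In the edgeR quasi-likelihood test 0 genes were higher and 0 lower in combination than in antiPD1 libraries (0% each way) at an adjusted p of 0.05. At an unadjusted p below 0.05 there were 292 genes higher (2.06%) and 360 lower (2.54%), and limma with sample weights also called 0 genes. Without antiPD1 replicate 3 the counts were again 0 and 0, with 322 (2.27%) and 388 (2.74%) at an unadjusted p below 0.05. DESeq2 called 3 genes higher and 9 lower: Pllp, Cxcl15 and Faim2, and Arg2, Kif21b, P4ha1, Vegfa, Baiap2l1, St3gal1, Hilpda, Ndrg1 and Slc2a1. Values of the 3 combination libraries lay wholly above the 3 antiPD1 values in 1067 genes (7.53%) and wholly below them in 941 (6.64%). Means were at least 2-fold higher in 113 genes (0.798%) and at least 2-fold lower in 191 (1.35%).

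The lowest adjusted p belonged to Arg2, the mitochondrial arginase. It had 23.9, 23 and 20.4 CPM in combination and 32.5, 39.3 and 39.3 in antiPD1 libraries (log2 fold change -0.72 ± 0.11, SE; adjusted p = 0.686). Every combination value was below every antiPD1 value, and the difference was -0.68 without antiPD1 replicate 3. Several of the other lower genes with small p-values act in the response to low oxygen and are described in the next paragraphs. Outside that group, Kif21b, a kinesin motor, had 28.5, 30.3 and 32 against 46.8, 43.7 and 56 CPM (-0.69 ± 0.14, adjusted p = 0.948). Baiap2l1, which links membranes to the actin skeleton, had 145, 145 and 131 against 211, 238 and 202 CPM (-0.63 ± 0.13), and the sialyltransferase St3gal1 had 165, 204 and 168 against 259, 251 and 276 (-0.55 ± 0.11). Groups did not overlap in any of these 3 genes. Genes in this and the next paragraph were named only among those without overlap, so this arrangement follows from the choice. The surface proteins Efna1 (an ephrin ligand; 227, 234 and 227 against 326, 335 and 417 CPM) and Sdc1 (a heparan sulfate proteoglycan; 174, 157 and 163 against 221, 188 and 243) were also lower without overlap, with log2 differences of -0.65 ± 0.16 and -0.40 ± 0.10.

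Among genes higher in combination libraries, Pllp, a membrane protein first known from myelin, had the smallest p (32.7, 38 and 30.1 against 21.3, 20 and 17.4 CPM; 0.78 ± 0.13, adjusted p = 0.855). The chemokine Cxcl15 had 42.2, 44.8 and 31.4 CPM against 23.2, 13.5 and 11 (1.31 ± 0.28). Faim2, an inhibitor of Fas-mediated cell death, had 99, 90.6 and 151 CPM against 14.8, 5.34 and 2.89 (3.88 ± 0.87, adjusted p = 0.998). Its lowest combination value was several times the highest antiPD1 value, yet untreated libraries were themselves uneven at 9.15, 3.86 and 49.1 CPM. The short-chain fatty acid receptor Ffar2 had 30.1, 40.2 and 26 against 13.4, 13.6 and 8.66 CPM (1.43 ± 0.36), and the metalloproteinase Mmp28 had 10.3, 11.3 and 12.5 against 7.53, 4.98 and 4.18 (1.03 ± 0.25). Lfng, which adds sugar to Notch receptors, had 24.2, 21.1 and 22.8 against 15.5, 16.1 and 17.7 (0.47 ± 0.12). Plekhs1, a pleckstrin homology domain protein, the mucin Muc1 and the fucosyltransferase Fut2 were higher without overlap too, by 0.98 ± 0.26, 0.81 ± 0.22 and 0.61 ± 0.17.

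Genes of the hypoxia response were lower in combination libraries as a group. Of 20 tested genes on the list of HIF components and targets, 18 had lower and 2 higher means, with a median log2 difference of -0.40 beside -0.01 over all genes tested. None passed the test; 9 of 20 were lower at an unadjusted p below 0.05 (background 2.54%) and 10 of 20 were lower without overlap (background 6.64%). The angiogenic factor Vegfa had 359, 347 and 433 CPM in combination and 591, 683 and 579 in antiPD1 libraries (-0.70 ± 0.14, adjusted p = 0.948). Ndrg1, a stress-induced gene of hypoxic cells, had 234, 288 and 282 against 534, 582 and 434 CPM (-0.95 ± 0.22). The mitophagy receptor Bnip3 had 242, 222 and 272 against 485, 409 and 366 (-0.78 ± 0.23). In all 3 genes the highest combination value was below the lowest antiPD1 value. Ddit4, a brake on mTOR signalling, had 137, 132 and 153 against 276, 251 and 282 CPM (-0.94 ± 0.35), and P4ha1, which hydroxylates collagen prolines, had 89, 116 and 104 against 155, 137 and 145 (-0.50 ± 0.10). Hilpda, a lipid droplet protein induced by hypoxia and not on the list, had 89.7, 88.2 and 107 against 196, 168 and 242 (-1.09 ± 0.24). The vasodilator peptide Adm was uneven among antiPD1 libraries, with 12.3, 3.52 and 17.2 CPM against 2.65, 3.34 and 2.51. Hif1a itself, the oxygen-regulated subunit, overlapped between groups (201, 198 and 234 against 228, 218 and 334; -0.30 ± 0.15, and -0.09 without antiPD1 replicate 3). Its regulation is known to act mainly on the protein, which was not measured. The oxygen sensor Egln3, itself a HIF target, overlapped through antiPD1 replicate 3 (162, 187 and 195 against 303, 217 and 194).

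Without antiPD1 replicate 3 the hypoxia pattern was at least as wide: all 20 genes had lower means, the median was -0.46, and 15 of 20 did not overlap (background 15.5% for 3 against 2 libraries). The summed level of the list was 2387, 2456 and 2629.6 CPM in combination and 3888, 3636 and 3599 in antiPD1 libraries, so antiPD1 replicate 3 lay with its group here. The median stayed between -0.47 and -0.27 over all alternatives run.

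Glycolysis genes were lower alongside them. All 23 tested members had lower means, 12 of 23 did not overlap (background 6.64%), and the median difference was -0.33; 0 passed the test and 9 of 23 were lower at an unadjusted p below 0.05 (background 2.54%). Glucose enters through the transporter Slc2a1, with 204, 206 and 249.8 CPM in combination and 376, 369.6 and 380.0 in antiPD1 libraries (-0.77 ± 0.18, adjusted p = 0.998). Hexokinase 2 (Hk2), which traps glucose in the cell, had 269, 319 and 313 against 328, 389 and 456 CPM (-0.38 ± 0.13). The next enzymes were lower by similar amounts: Gpi1 (glucose-6-phosphate isomerase) had 504, 547 and 542 against 831, 687 and 664 CPM (-0.45 ± 0.15) and Aldoa (aldolase) had 1382, 1567 and 1569 against 1913, 2022 and 2038 (-0.40 ± 0.11). Further down the pathway, Pgk1 (phosphoglycerate kinase) had 653, 673 and 725 against 1029, 877 and 811 CPM (-0.41 ± 0.18) and Eno1 (enolase) had 691, 732 and 753 against 893, 813 and 875 (-0.25 ± 0.09). Ldha, which makes lactate, showed the smallest difference of these enzymes (1931, 1985 and 2026 against 2459, 2258 and 2100.2; -0.20 ± 0.11). Groups did not overlap in these 7 genes, although the gap was narrow for Hk2 and Ldha. Gapdh had 132, 131 and 146 against 198, 184 and 149 CPM, but near-identical copies elsewhere in the genome can take its reads, so its level is uncertain. Without antiPD1 replicate 3, 20 of 23 members were lower, the median was -0.26 and 15 did not overlap (background 15.5%). On the deposited FPKM scale the median was -0.18, where the median of all genes tested was 0.07. Oxidative phosphorylation, the other main route of energy supply, had a median of -0.06 with 17 of 21 members lower, and 0.02 with 9 of 21 lower without antiPD1 replicate 3.

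**Figure D1:**
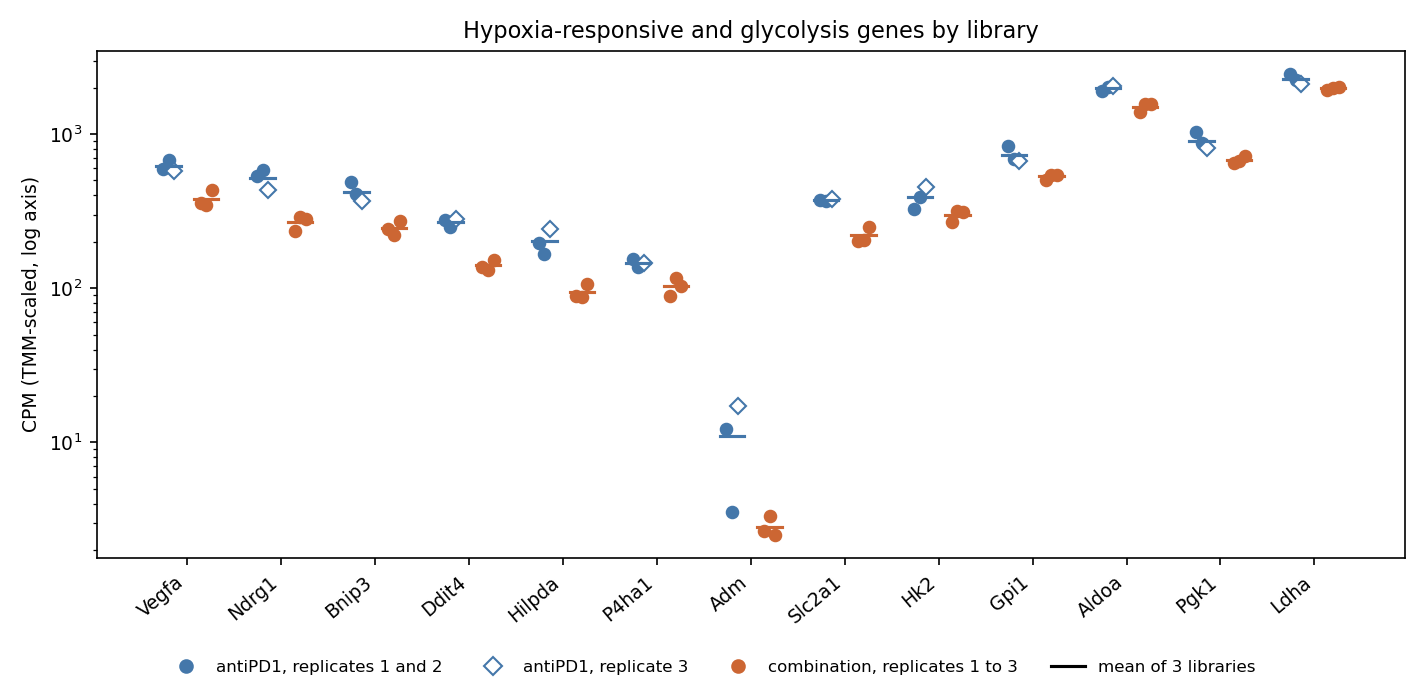
Level of 13 hypoxia-responsive and glycolysis genes in each library (CPM, log axis). Blue circles are antiPD1 replicates 1 and 2, open diamonds antiPD1 replicate 3, orange circles the 3 combination libraries, and bars the means of 3 libraries. In every gene shown the 3 combination values lie below the 3 antiPD1 values, and antiPD1 replicate 3 lies near its group except in Adm, where replicate 2 is the low one.

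The core letters that HIF binds (HRE, ACGTG or GCGTG, on either strand) were searched in the 250 bases upstream of the RefSeq start of each gene. These letters were chosen after the data were seen, and CACGTG, the E-box, contains ACGTG on both strands. They occurred in 13 of 16 hypoxia list promoters (81.2%) and 15 of 21 glycolysis promoters (71.4%), beside 5887 of 10819 (54.4%) of all tested genes with a promoter sequence. The 4 stretches below are shown because they belong to lower genes of both lists, with the matched letters in capitals; they are read 5′ to 3′ along the gene from RefSeq on GRCm38.p6, the patched mm10 assembly. All 4 lie upstream of the transcription start.
Bnip3, chr7:138909512-138909648 (- strand): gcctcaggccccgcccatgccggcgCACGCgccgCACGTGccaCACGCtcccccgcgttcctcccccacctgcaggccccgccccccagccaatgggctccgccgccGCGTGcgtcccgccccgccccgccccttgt
Slc2a1, chr4:119108659-119108738 (+ strand): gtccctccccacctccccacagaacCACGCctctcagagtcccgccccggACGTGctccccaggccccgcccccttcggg
P4ha1, chr10:59323108-59323162 (+ strand): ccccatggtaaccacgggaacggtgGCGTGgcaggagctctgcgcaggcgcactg
Hk2, chr6:82774651-82774704 (- strand): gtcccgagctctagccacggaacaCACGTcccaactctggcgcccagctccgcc
P4ha1 has 3 such matches upstream and Hk2 has 2, with 1 shown for each. Bnip3 has the densest cluster, and its capitals CACGTG are an E-box read on both strands. The lower genes Vegfa, Gpi1 and Aldoa have none of these letters in the 250 bases searched. Given the high background, a match describes the letters only, and binding was not measured.

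Immediate early genes, which cells transcribe within minutes of a stimulus or of tissue handling, were lower in combination libraries in 14 of 16 members (median -0.71; 9 of 16 without overlap beside 6.64% of all genes, 5 at an unadjusted p below 0.05 beside 2.54%, 0 past the test). Fosb, a subunit of the AP-1 transcription factor, had 6.51, 5.75 and 5.84 CPM against 21.3, 17.3 and 15.2 (-1.57 ± 0.88). Egr1, a zinc finger factor, had 65.6, 51.6 and 50.2 against 131, 82.7 and 116 (-0.97 ± 0.47), and the MAP kinase phosphatase Dusp1 had 83.4, 91.8 and 96.2 against 204, 138 and 272 (-1.18 ± 0.40). Combination libraries were close together in these genes and antiPD1 libraries were spread. For Zfp36, which marks cytokine mRNAs for decay, the antiPD1 values were 93.7, 54.2 and 241 CPM against 53.4, 46.6 and 49.8, and for the stress factor Atf3 they were 35.8, 40.2 and 112 against 26.1, 27.1 and 25.2. Both have their highest value in antiPD1 replicate 3, and without it the list median was -0.39, with 14 of 16 lower, 11 without overlap (background 15.5%) and 0 at an unadjusted p below 0.05.

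Of 17 genes of the integrated stress and unfolded protein responses 12 were lower (median -0.23; -0.19 without antiPD1 replicate 3), 6 of them without overlap (background 6.64%) and 0 past the test. The chaperone Hspa5 had 975, 1241 and 1136 CPM against 1399, 1354 and 1817 (-0.45 ± 0.13). Ddit3, the stress factor CHOP, had 45.8, 44.8 and 53.8 against 62.6, 92.8 and 62.8 (-0.60 ± 0.19), and the co-chaperone Dnajb9 had 38.9, 42.6 and 38.2 against 53.6, 55.5 and 80.5 (-0.66 ± 0.21).

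Type I interferon response genes were higher in combination libraries. Of 48 tested members 44 had higher means and 4 lower, with a median log2 difference of 0.32; 0 passed the test, 14 were higher and 1 lower at an unadjusted p below 0.05 (background 2.06% and 2.54%), and 18 were higher without overlap (background 7.53%). Ifit1, which binds viral RNA, had 13, 9.12 and 10.3 CPM in combination and 5.35, 4.95 and 5.29 in antiPD1 libraries (1.05 ± 0.29, adjusted p = 0.998). Its relatives Ifit2 (36.9, 27.8 and 34 against 16.9, 12.5 and 21.7; 0.95 ± 0.32) and Ifit3 (18.7, 13.2 and 13.1 against 5.52, 6.56 and 9.76; 1.04 ± 0.44) were about as far apart. Because Ifit genes are similar in sequence, the split of reads between them is uncertain. The ubiquitin-like modifier Isg15 had 21.2, 16.6 and 17.4 against 9.01, 11.2 and 14.2 CPM (0.69 ± 0.24). Oasl2, of the oligoadenylate synthetase family, had 77.6, 67.4 and 89.5 against 38.7, 50.3 and 56 (0.69 ± 0.27). Rtp4, an interferon-induced chaperone of receptors, had 23.7, 16.3 and 17.8 against 10.8, 10.1 and 12 (0.81 ± 0.24), and the mitochondrial nucleotide kinase Cmpk2 had 14.4, 10.3 and 11.6 against 7.99, 6.17 and 7.69 (0.73 ± 0.23). In these genes antiPD1 replicate 3 was at or near the top of its group but below all combination libraries. Parp14, an ADP-ribosyltransferase, was higher by a similar amount (137, 129 and 148 against 80.6, 85.9 and 101; 0.63 ± 0.19). Isg20, an exonuclease, was the member lower at an unadjusted p below 0.05 (20.7, 22.5 and 27.9 against 31.4, 30.3 and 29.6; -0.36 ± 0.15).

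The size of the interferon difference rested in part on antiPD1 replicate 3. Summed over the list, combination libraries had 3187, 2907 and 3247 CPM and antiPD1 libraries 2196, 2431 and 3409, so antiPD1 replicate 3 exceeded all 3 combination libraries. Without it 47 of 48 members were higher, 40 without overlap (background 16.4%), and the median was 0.53. Irf7, a transcription factor that amplifies interferon production, overlapped between the groups while that library was included, with 63.1, 43.8 and 50.9 CPM against 34.2, 36.1 and 58.9 (0.29 ± 0.36, 0.57 ± 0.38 without it). The list median stayed between 0.24 and 0.53 over all alternatives run.

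**Figure D2:**
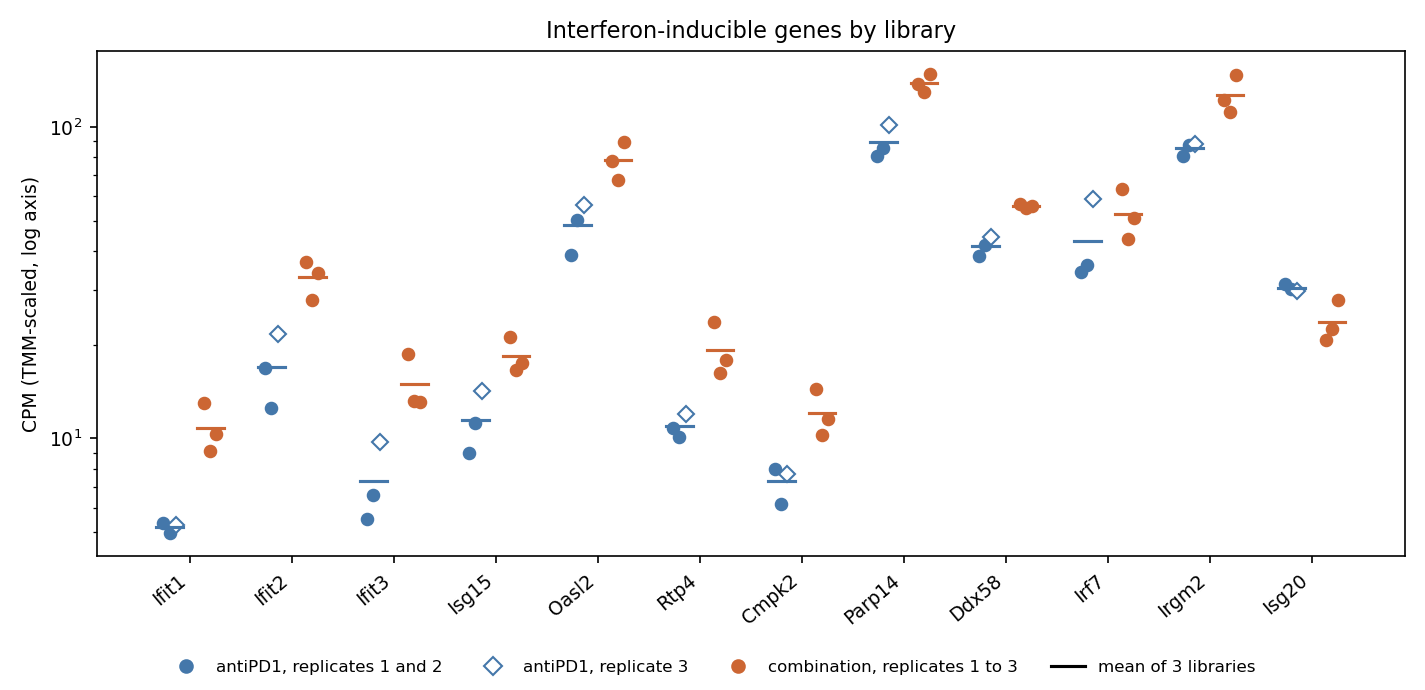
Level of 12 interferon-inducible genes in each library (CPM, log axis), with blue circles for antiPD1 replicates 1 and 2, open diamonds for antiPD1 replicate 3, orange circles for combination and bars for means of 3. For Ifit1 to Parp14 the combination values lie above all antiPD1 values, while for Irf7 the antiPD1 replicate 3 diamond lies within the combination values and Isg20 lies the other way.

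The ISRE letters (GAAA, any 2 bases, GAAA, on either strand) were found upstream of 14 of 39 type I list genes with a promoter sequence (35.9%), beside 302 of 10819 (2.79%) of all tested genes. The letters TTCNNNGAA, the gamma-activated sequence (GAS), searched on both strands, were found in 5 of 39 (12.8%), beside 664 of 10819 (6.14%). Stretches of Ifit1 and Isg15 are shown because both genes were higher without overlap, with ISRE matches in capitals, 5′ to 3′ along the gene from RefSeq on GRCm38.p6.
Ifit1, chr19:34640760-34640838 (+ strand): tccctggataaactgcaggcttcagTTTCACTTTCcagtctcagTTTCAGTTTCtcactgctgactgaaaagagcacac
Isg15, chr4:156200850-156200921 (- strand): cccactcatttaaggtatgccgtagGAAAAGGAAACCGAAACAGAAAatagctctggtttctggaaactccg
Ifit1 has 2 separate matches on the other strand, and Isg15 has 3 that overlap each other. Not every higher gene has these letters: Ifit2 has none in its window.

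The interferon gamma inducible GTPases, which attack pathogen vacuoles, were higher in 14 of 16 members (median 0.23), but only 1 of 16 without overlap (background 7.53%). That member was Irgm2, with 122, 111 and 147 CPM against 80.8, 87.5 and 88.1 (0.57 ± 0.27). Without antiPD1 replicate 3 all 16 were higher and 15 did not overlap (background 16.4%), with a median of 0.56. The median was 0.06 without combination replicate 3 and 0.09 without antiPD1 replicate 1. Promoters of these GTPases had ISRE letters in 9 of 10 cases (90%) and GAS letters in 6 of 10 (60%). Receptors, kinases and regulators of the pathway were evenly split, 10 higher and 10 lower of 20 (median 0.01). Socs1, the feedback inhibitor of Jak kinases, had 19.1, 20.8 and 30.9 CPM against 13.8, 17 and 16.8 without overlap (0.57 ± 0.31).

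The direction of antigen presentation genes changed when antiPD1 replicate 3 was left out. The median of 21 MHC class I pathway genes was -0.02 with that library and 0.27 without it, when 20 of 21 members were higher and 14 did not overlap (background 16.4%). The class I heavy chain H2-K1 had 558, 419 and 516 CPM in combination and 359, 373 and 1468 in antiPD1 libraries; H2 genes are alike in sequence and their separate counts are uncertain. Nlrc5, the class I transactivator, had 93.3, 91.5 and 113 against 55.9, 85.6 and 106 CPM. For the 11 class II genes the median was -0.38 with 10 lower, and 0.55 with 9 higher without antiPD1 replicate 3. Their transactivator Ciita had 56.6, 62.7 and 73.5 against 31.9, 48.2 and 79 CPM.

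Cell cycle genes were higher in all 30 tested members, 22 of them without overlap (background 7.53%), although each difference was small and 0 passed the test, with 1 at an unadjusted p below 0.05. The median was 0.29 with all libraries and 0.29 without antiPD1 replicate 3. Rrm2, which supplies deoxynucleotides, had 108, 96.5 and 100.3 CPM against 76.4, 83.9 and 63.6 (0.45 ± 0.20). The proliferation antigen Mki67 had 291, 293 and 302 against 197, 253 and 236 (0.37 ± 0.27), and the kinetochore motor Cenpe 58.8, 60.2 and 63 against 39, 50.7 and 36.6 (0.53 ± 0.28). Cyclin E2 (Ccne2) had 34.2, 32.9 and 34.8 against 24.1, 28.8 and 16.6 (0.55 ± 0.28), while topoisomerase Top2a nearly met at the edges (426, 447 and 435 against 310.5, 385 and 426; 0.22 ± 0.32). Combination libraries agreed closely with each other in these genes. The list's summed level was 3069, 3122 and 3071 CPM in combination and 2293, 2802 and 2616 in antiPD1 libraries.

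Targets of Wnt signalling were higher in 11 of 12 tested members (median 0.35; 0.15 and 10 of 12 without antiPD1 replicate 3), 3 without overlap (background 7.53%) and 0 past the test. The member with the lower mean, Lef1, was lower without overlap (-0.54; background 6.64%), and the median was 0.58 without antiPD1 replicate 1. Among feedback inhibitors on the list, Notum, a lipase that inactivates Wnt ligands, had 132, 145 and 98.1 CPM against 76.8, 60.1 and 52 (0.99 ± 0.34), and Nkd1 had 122, 131 and 84.3 against 80, 64.1 and 45.1 (0.83 ± 0.24). Axin2, a further feedback inhibitor and commonly used Wnt readout, overlapped (221, 210.1 and 198 against 211, 157 and 82).

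In lipid metabolism, 3 of 20 genes of fatty acid synthesis and oxidation were higher without overlap (background 7.53%). These 3 act in synthesis, but the other synthesis genes on the list, such as Scd1, Scd2, Acly and Srebf1, overlapped between the groups. Acaca, acetyl-CoA carboxylase, had 55.7, 49.1 and 47.9 CPM against 37, 37 and 35.9 (0.47 ± 0.14). Fatty acid synthase Fasn had 274, 250.4 and 255 against 207, 214 and 205 (0.32 ± 0.14), and the elongase Elovl6 28.1, 21.2 and 23.8 against 19.4, 16.7 and 14.1 (0.54 ± 0.17). The full list of 20 synthesis and oxidation genes had 6 higher and 14 lower, with a median of -0.12 that was 0.20 without antiPD1 replicate 3. Cholesterol synthesis genes were higher in 13 of 22 (median 0.07) and in 20 of 22 without that library (median 0.27). Neither list had a direction that held when other single libraries were left out: the cholesterol median was -0.20 without combination replicate 1, -0.03 without antiPD1 replicate 1 and -0.11 without antiPD1 replicate 2, and that of the synthesis and oxidation list was 0.01 without combination replicate 2.

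**Figure D3:**
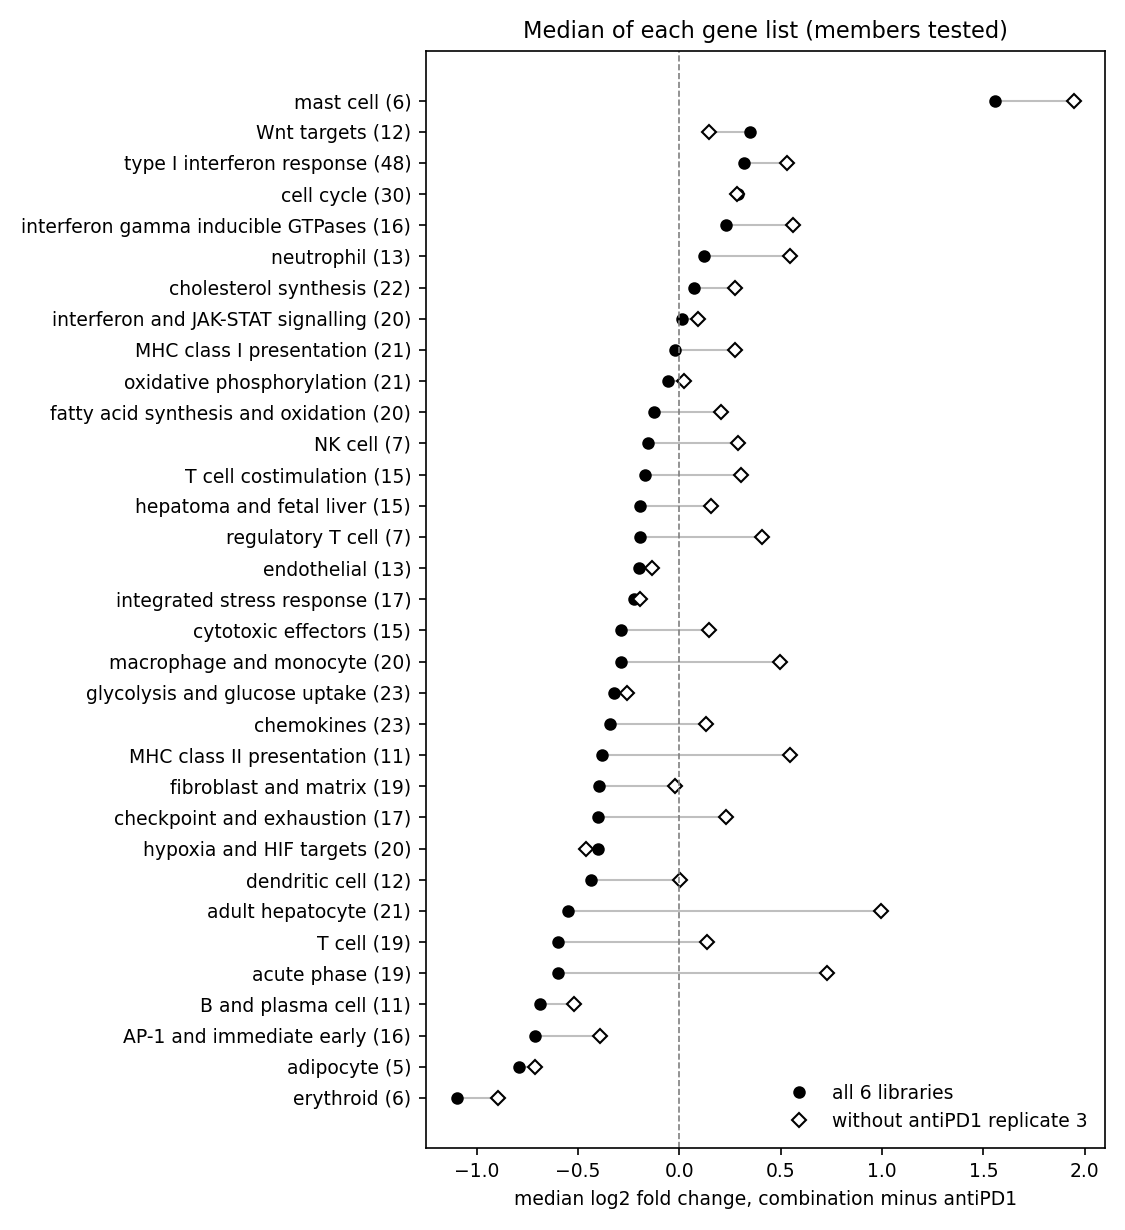
Median log2 fold change (combination minus antiPD1) of each gene list with at least 5 tested members, whose number is in brackets. Filled circles use all 6 libraries and open diamonds leave out antiPD1 replicate 3. Hypoxia, glycolysis, AP-1 and cell cycle lists keep their side of 0, whereas T cell, macrophage, MHC class II, acute phase and adult hepatocyte lists cross it.

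Markers of T cells, macrophages and NK cells pointed 1 way with antiPD1 replicate 3 and the other way without it. Summed over 19 T cell markers, combination libraries had 154, 162 and 191 CPM and antiPD1 libraries 112, 199.9 and 454. All 19 were lower with that library (median -0.60) and 16 were higher without it (median 0.14), with no member free of overlap in either case. The cytotoxic T cell co-receptor Cd8a had 17.6, 20 and 22.2 CPM against 12.3, 23.7 and 41.4. Foxp3, the factor of regulatory T cells, had 2.03, 2.70 and 2.70 against 0.736, 1.83 and 5.87 CPM. In both genes the antiPD1 values enclosed the combination values. Macrophage and monocyte markers summed to 2190.4, 1756 and 1954 CPM against 1369, 1344 and 5264; their median was -0.29, and 0.50 with 11 of 20 higher without overlap (background 16.4%) when antiPD1 replicate 3 was left out. Lysozyme Lyz2, abundant in macrophages, had 710.4, 463 and 654 CPM against 393, 366 and 2229. NK cell and dendritic cell lists likewise had medians of -0.16 and -0.44, and 0.29 and 0.00 without that library.

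The 11 tested B and plasma cell markers were all lower in combination libraries, 5 without overlap (background 6.64%), with a median of -0.69. Without antiPD1 replicate 3 the median was -0.52 and 10 of 11 were lower. Summed over the list, combination libraries had 46.9, 40.9 and 39.5 CPM and antiPD1 libraries 41.3, 64.4 and 98.4, so the sums overlapped. Levels were low: Cd79b, part of the B cell receptor, had 1.41, 0.901 and 1.46 CPM against 2.07, 1.88 and 2.17, and Derl3, abundant in plasma cells, 3.86, 3.31 and 2.12 against 4.87, 5.26 and 5.12. Mast cell proteases were higher in combination libraries. Tpsb2, a tryptase, had 2.37, 4.85 and 3.31 CPM against 0.425, 0.941 and 1.78 (1.74 ± 0.60), and the chymases Mcpt4 and Cma1 had 2.54, 5.35 and 2.64 against 0.595, 1.58 and 1.46 and 1.89, 2.62 and 2.76 against 0.198, 0.803 and 1.43. Cpa3, a carboxypeptidase, had 2.03, 3.84 and 3.47 against 0.17, 1.16 and 1.78. These 4 of 6 tested mast cell markers did not overlap (background 7.53%). The list had 5 higher and 1 lower member, with a median of 1.56, and 0 passed the test. The stem cell factor receptor Kit, which other cells also express, went the other way (7.16, 7.58 and 6.50 against 22.6, 4.93 and 21.1). Of 13 neutrophil markers 7 were higher and 6 lower, with differences from -0.59 to 1.24 (median 0.12; 0.55 with 10 higher without antiPD1 replicate 3, and -0.14, -0.03 and -0.03 without combination replicate 2, antiPD1 replicate 1 and antiPD1 replicate 2). Lactoferrin Ltf had 10.6, 12.1 and 8.16 CPM against 5.32, 4.21 and 6.29 (0.97 ± 0.41); the gelatinase Mmp9, also made by other cells, had 23.1, 48.5 and 33.8 against 23.3, 13 and 13.6.

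The antibody's own axis differed by less than the spread of the antiPD1 libraries. Pdcd1, which encodes PD-1, had 8.57, 11.9 and 12 CPM in combination and 5.24, 10.1 and 25 in antiPD1 libraries (-0.31 ± 0.56; 0.49 ± 0.51 without antiPD1 replicate 3). Its ligand Cd274 (PD-L1), an interferon target, had 67.7, 58.3 and 94.3 against 56.5, 50 and 167 CPM (-0.31 ± 0.41; 0.46 ± 0.27 without it). Of 17 checkpoint and exhaustion genes 16 were lower with all libraries and 13 higher without antiPD1 replicate 3 (medians -0.40 and 0.23). Only 1 of the 17, Nr4a1, was free of overlap in the 6 libraries, and it was lower (background 6.64%). Nr4a1, a nuclear receptor induced by antigen receptor signalling and other stimuli, had 19.3, 18.9 and 21.5 against 24.9, 29.6 and 37.4 CPM (-0.62 ± 0.23). In costimulation, the ligand Tnfsf4 (OX40L) had 35.6, 38.9 and 33.9 CPM against 30.7, 24.5 and 15.3 (0.62 ± 0.23) and the receptor Tnfrsf9 (4-1BB) 9.33, 17.1 and 15.9 against 28.8, 16.3 and 25.9 (-0.75 ± 0.27).

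Of 15 cytotoxic effectors tested, 2 were lower in combination libraries without overlap (background 6.64%), the granzymes Gzma and Gzmb. Gzma had 2.28, 1.48 and 1.98 CPM against 6.74, 3.63 and 4.18 (-1.34 ± 0.37; -1.44 ± 0.40 without antiPD1 replicate 3), and Gzmb had 6.73, 5.67 and 8.49 against 10.3, 10.4 and 24.7 (-1.12 ± 0.36; -0.58 ± 0.28 without it). Both are proteases that killer cells inject into targets. Tnfsf10 (TRAIL), a death ligand induced by interferon, was the 1 member higher without overlap (background 7.53%). It had 17.3, 16.4 and 18.7 CPM against 8.95, 9.38 and 16.2 (0.60 ± 0.32). The whole list of 15 cytotoxic effectors had 12 lower members (median -0.29) and 7 lower without antiPD1 replicate 3 (median 0.14).

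Chemokines were lower in 21 of 23 members with all libraries (median -0.34) and in 8 of 23 without antiPD1 replicate 3 (median 0.13). Cxcl2, a neutrophil attractant, was lower in both settings (4.06, 4.82 and 4.88 CPM against 9.57, 7.81 and 21; -1.48 ± 0.40 and -0.93). Cxcl10, an interferon-inducible ligand of Cxcr3, a chemokine receptor of T cells, had 65.8, 85.8 and 115 against 43.6, 52.2 and 70.5 (0.68 ± 0.41 and 0.89), whereas the second such ligand, Cxcl9, had 183, 185 and 301 against 150.2, 186 and 663. Ccl5, made by T cells and macrophages, had 27.4, 25.1 and 36.3 against 19.8, 40.5 and 178, again with the highest value in antiPD1 replicate 3.

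**Figure D4:**
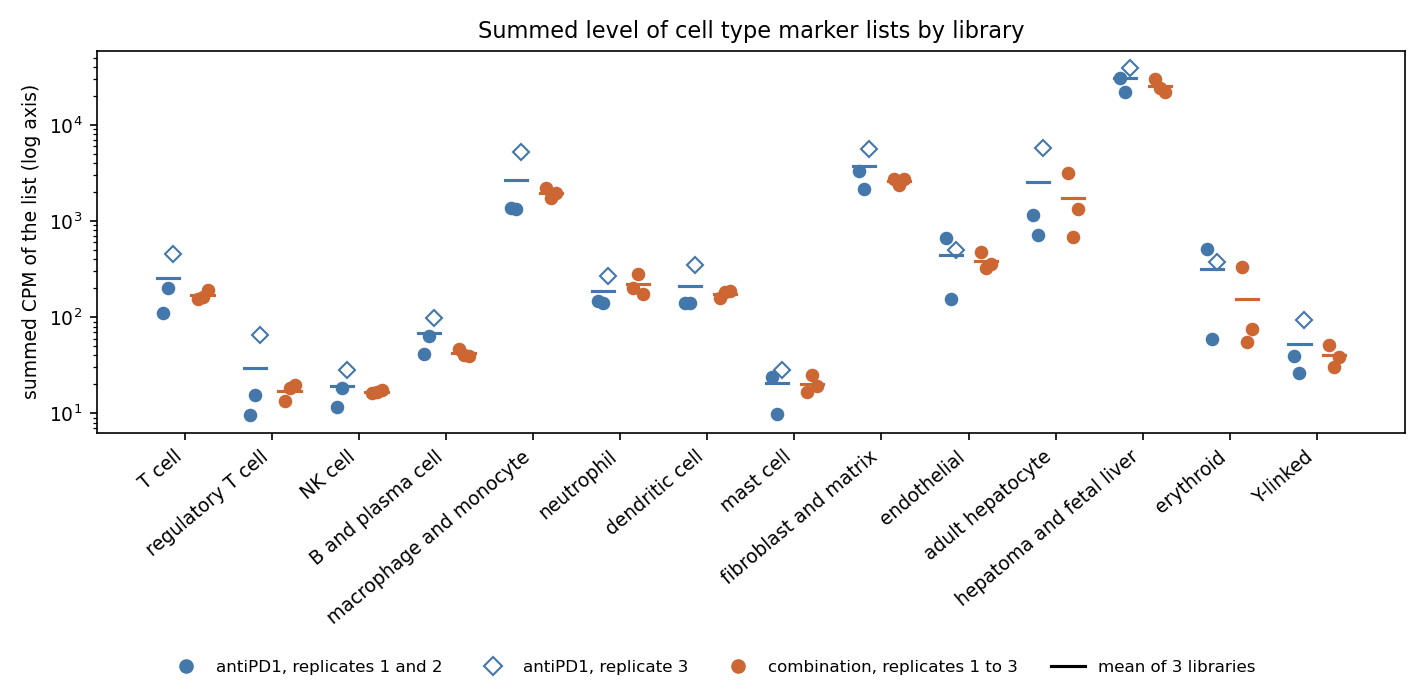
Summed CPM of each cell type marker list per library (log axis), with blue circles for antiPD1 replicates 1 and 2, open diamonds for antiPD1 replicate 3, orange circles for combination and bars for means of 3. The antiPD1 replicate 3 diamond is the highest value for every list shown except neutrophil, endothelial and erythroid. The mast cell sums, which include Kit, overlap between the groups. For the macrophage list all 3 combination values lie above antiPD1 replicates 1 and 2, and for the adult hepatocyte list combination replicates 1 and 3 do.

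Liver and stromal lists were uneven between replicates. Adult hepatocyte genes, which the surrounding liver expresses, summed to 3159, 685 and 1339.9 CPM in combination and 1158, 712 and 5817 in antiPD1 libraries. The urea cycle arginase Arg1 had 129.6, 35.3 and 58.5 CPM against 174, 41.2 and 338. Acute phase genes had a median of -0.60, and 0.73 without antiPD1 replicate 3; the acute phase protein Saa3 had 47.7, 22.4 and 29.9 CPM against 32.4, 81.7 and 473 and resembles other Saa genes in sequence. Fibroblast and matrix genes had a median of -0.40, and -0.02 without that library. Hepatoma and fetal liver genes had -0.19 and 0.16. The 4 Y-linked genes summed to 52, 30.5 and 39 CPM against 39.2, 26.2 and 94.2, and albumin (Alb) had 11099.7, 7724 and 6858 against 11144, 7242 and 15945. The part of these cell mixtures in the pathway differences was not tested.

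The same addition of IFNa can be read without antiPD1, as IFNa against untreated libraries; these 6 libraries are separate from the 6 above. In that comparison 0 genes passed either (0% each way), with 312 higher (2.2%) and 453 lower (3.2%) at an unadjusted p below 0.05. Type I interferon genes were higher there too (43 of 48, median 0.44; 20 without overlap, background 4.98%), and 41 of 48 had the same direction in both comparisons, beside 6230 of 14162 over all genes. Ifit1 had 1.62, 2.14 and 3.45 CPM in untreated and 8.10, 4.89 and 5.56 in IFNa libraries, and Isg15 had 5.10, 8.07 and 7.49 and 15, 9.64 and 11.2. The difference between both IFNa effects was -0.30 ± 0.41 for Ifit1 (adjusted p = 0.889) and -0.11 ± 0.33 for Isg15 (adjusted p = 0.951), and 0 of 48 members passed an unadjusted p of 0.05 (background 3.46% with a more positive and 2.44% with a more negative effect).

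Without antiPD1, hypoxia and glycolysis genes had medians of -0.10 and -0.11 for IFNa against untreated. Lower means were seen in 15 of 20 and 17 of 23, beside 6834 of 14162 over all genes. Only 0 and 1 of them were lower without overlap (background 5.2%). The direction was the same in both comparisons in 13 of 20 and 17 of 23, beside 6230 of 14162. Vegfa had 725, 505 and 540.3 CPM in untreated and 514, 511 and 544 in IFNa libraries, and the test of the difference gave -0.53 ± 0.20 (adjusted p = 0.809). For P4ha1 it gave -0.59 ± 0.14 (adjusted p = 0.563). Neither passed. At an unadjusted p below 0.05 the IFNa effect with antiPD1 was more negative in 4 of 20 hypoxia and 1 of 23 glycolysis genes (background 2.44%), and in 2 of 20 and 2 of 23 with IFNa replicate 1 left out (background 2.33%).

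Cell cycle and Wnt genes pointed opposite ways in the 2 comparisons. Cell cycle genes were lower after IFNa alone in 29 of 30 (median -0.34), but with IFNa replicate 1 left out this median was -0.09 with 21 of 30 lower. All 12 Wnt targets were lower after IFNa alone (median -0.63; -0.72 without IFNa replicate 1), 8 of them without overlap (background 5.2%). Notum had 211, 209 and 84.6 CPM in untreated and 30.2, 52.5 and 56.7 in IFNa libraries, against its higher values in combination than antiPD1 libraries, and the difference between both effects was 2.84 ± 0.49 (adjusted p = 0.482). At an unadjusted p below 0.05, 10 of 12 Wnt targets and 5 of 30 cell cycle genes had a more positive IFNa effect with antiPD1 (background 3.46%). With IFNa replicate 1 left out these counts were 9 of 12 and 12 of 30 (background 4%). Over all genes 0 differences passed in edgeR with all libraries, whereas DESeq2 called 34.

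**Figure D5:**
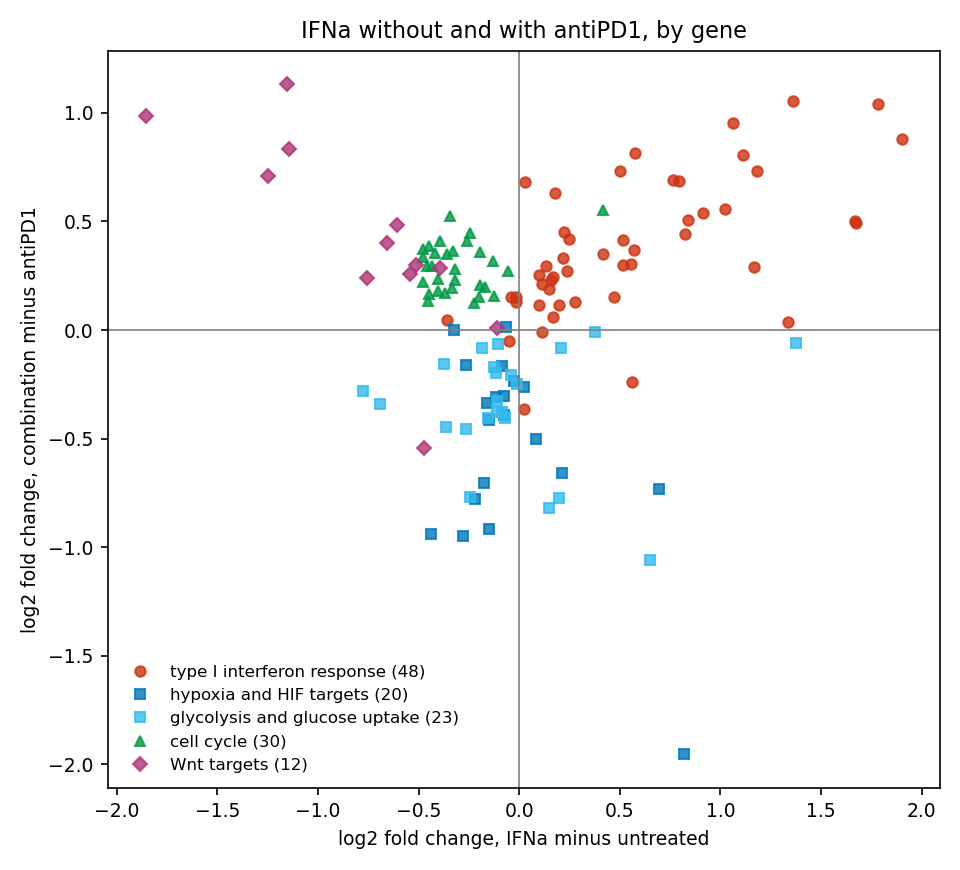
Log2 fold change of each gene for IFNa minus untreated (horizontal) and combination minus antiPD1 (vertical), in 5 lists with the number of genes in brackets; the 2 comparisons share no library. Most type I interferon genes lie in the upper right, and most cell cycle and Wnt genes in the upper left. Most hypoxia and all glycolysis genes lie below the horizontal line, with medians of -0.10 and -0.11 on the other axis. Adm, on the hypoxia list, lies to the right of 0 on that axis.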

How the data were processed

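Total RNA of 12 libraries was sequenced, and groups were taken from the labels, with columns matched to samples by name. The submitters' processing notes name HISAT2 2.1.0, HTSeq, Cufflinks and mm10; annotation and strand setting were not given in the sources used here, so overlapping and antisense genes cannot be told apart. The deposited count table holds the authors' integer counts per gene, which are not normalized, and the deposited FPKM table holds their FPKM for the same libraries.

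Counts of genes with at least 10 counts in at least 3 of the 6 libraries compared were scaled by TMM in edgeR 4.0.16 (R 4.3.3), and its quasi-likelihood F test was run with robust settings. All 12 libraries entered, with 1 mean per group, with Benjamini-Hochberg adjustment over 14162 genes and a threshold of 0.05. Library totals were 31.3 to 38.5 M, and 3 counts corresponded to 0.0787 to 0.102 CPM. Standard errors were derived from the log2 fold change and its F value.

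Members and lists were chosen with earlier results of these data known. Lists are described by counts and medians, and no list was tested. Genes were named by rule: up to 12 in each direction with the smallest p among those without overlap whose higher mean reached 5 CPM; the 4 members with the smallest p in each list; and a short list of interferon, checkpoint and metabolic genes. Ddit4, Adm, Egln3, Eno1, Gapdh, Pgk1, Egr1, Ifit2, Ifit3, Isg20, Ciita, Cpa3, Mki67, Top2a, Axin2, Lef1, Hbb-bs, Dmbt1, Gja5, Slc44a4, Gabrp, Cyp4a10 and Creb3l3 fall outside it and were named after their values were seen. Upstream sequences are from RefSeq, where 10819 of 14162 tested genes matched by symbol, using the most upstream start. Alternatives were RLE size factors, 2 other filters, the 6 libraries alone, DESeq2 1.42.0, limma 3.58.1 with sample weights, a replicate block, log2(FPKM + 1) and log2(FPKM + 0.1) with limma-trend, and leaving out each library. Leaving out antiPD1 replicate 3 from a fit to its 6 libraries, and together with IFNa replicate 1, was added after the data were seen. The procedure was tested on simulated data. Some genes, such as Mx1, Mx2 and Cxcl11, were not analysed here, and some that the rule names are not reported here.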

Additional observations from a re-analysis of the deposited data

Results flagged for a closer look

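In 8 of 104 named genes compared, the 3 combination values lay above the 3 antiPD1 values while the 3 IFNa values lay below the 3 untreated values. These 8 were picked by that arrangement, and many named genes were already chosen for lack of overlap. The differences below use the same values, so large ones follow from the selection and give no separate support. Over all 14162 genes tested there were 106 such genes, with 28 in the reverse arrangement and 68 without overlap in the same direction in both comparisons. The difference between the 2 IFNa effects on the log2 scale was 2.84 ± 0.49 for the Wnt inhibitor Notum and 1.98 ± 0.34 for Nkd1 (adjusted p = 0.482 in edgeR for both). It was 2.17 ± 0.50 for Ffar2 (adjusted p = 0.54), 2.1 ± 0.39 for Cxcl15 (adjusted p = 0.482) and 1.44 ± 0.19 for Pllp (adjusted p = 0.155, the smallest of all genes). The elongase Elovl6 had 1.15 ± 0.24 and the fucosyltransferase Fut2 1.11 ± 0.23 (adjusted p = 0.482 for both), and Tnfsf4 had 1.08 ± 0.33 (adjusted p = 0.809). None passed over all genes in edgeR. With IFNa replicate 1 left out, Pllp and Fut2 had adjusted p-values of 0.188 each and the other 6 had 0.221 to 0.762.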

How the results depend on the processing

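The counts of genes past the threshold were 0 in both directions under every setting except DESeq2, which called 3 higher and 9 lower, and 34 for the difference between IFNa effects, where edgeR called 0 with 835 at an unadjusted p below 0.05. Leaving out each library in turn gave 0 to 0 higher, 0 to 0 lower and 0 to 1 for that difference, the 1 without IFNa replicate 1; leaving it out together with antiPD1 replicate 3, a setting chosen after seeing the data, gave 2. With the replicate block 0 genes were higher and 0 lower (331 and 322 at an unadjusted p below 0.05), and it changed no call; Foxp3 was then 0.11. Same-numbered antiPD1 and combination libraries correlated at -0.01, 0.53 and -0.13 in their deviations, and not every library correlated best with its own number, so numbers were not taken as pairs. On log2(FPKM + 1) the split at an unadjusted p below 0.05 was 504 higher and 106 lower, with a median of 0.07 over all genes. The 12 genes called by DESeq2 kept their direction in every setting.

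Leaving out single libraries moved Pdcd1 from -0.70 to 0.49, Cd274 from -0.61 to 0.46, H2-K1 from -0.89 to 0.44, Cxcl9 from -0.93 to 0.40, Cd8a from -0.71 to 0.14, Foxp3 from -0.63 to 0.94 and Lyz2 from -1.11 to 0.67. The highest value came without antiPD1 replicate 3 in each. With only the 5 other libraries they were 0.48, 0.44, 0.43, 0.39, 0.13, 0.93 and 0.66 (Pdcd1 to Lyz2), without IFNa replicate 1 as well 0.49, 0.46, 0.44, 0.40, 0.14, 0.94 and 0.67, and with sample weights in limma-voom 0.56, 0.35, 0.22, 0.33, 0.24, 1.03 and 0.38. On the FPKM scale Pdcd1 was 0.012 with a pseudocount of 0.1 and Foxp3 0.029 without a filter. The cause of these reversals was not tested. Of the other values compared, 3374 were counted as unchanged. For genes this meant the same direction and still no call, and for list medians a move smaller than the spread. The median of all genes was always counted as unchanged. A further 29 list medians or counts of genes moved by more, and 12 genes gained a call, all in DESeq2. No gene was called in the main test, so none could lose a call. The difference between IFNa effects could not be fitted to 6 libraries alone, because it needs all 4 groups. Groups of 3 libraries limit the precision of every value, and low counts limit genes such as Foxp3 and the mast cell markers.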

Other observations

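Some transcripts were high in only some libraries of a group. Ctrb1, a digestive protease of the pancreas, had 17.3, 9.27 and 0.11 CPM in combination and 0.283, 0.083 and 0.0973 in antiPD1 libraries, so its mean difference rested on combination replicates 1 and 2. Dmbt1, a secreted scavenger protein of epithelia, had 9.07, 7.26 and 0.827 against 0.198, 0.138 and 0.778 CPM, high in the same 2 libraries. Red blood cell transcripts were high in 3 of the 6 libraries, from both groups: the beta-globin Hbb-bs had 199, 31.5 and 41.4 CPM in combination and 291, 34.2 and 204 in antiPD1 libraries, and globin genes are near-identical copies whose separate counts are uncertain. The lipid carrier Fabp4, found in adipocytes and endothelium, had 42.6, 39.2 and 27.8 against 101, 18.2 and 77.9 CPM and was high in antiPD1 replicates 1 and 3, as was Kit.

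Other genes differed by more than 2-fold without overlap, and were picked here after their values were seen. The connexin Gja5 had 23, 14 and 16.5 CPM against 9.21, 6.70 and 6.58. The choline transporter-like gene Slc44a4 had 5.41, 5.78 and 5.92 against 3.60, 1.63 and 1.82, and Gabrp, a subunit of the GABA receptor, had 6.09, 5.41 and 6.14 against 3.82, 1.02 and 0.778. Lower in combination libraries were Cyp4a10, which oxidises fatty acids (1.32, 0.262 and 2.89 against 5.78, 5.29 and 5.12), and the liver transcription factor Creb3l3 (31.5, 18.2 and 17.8 against 38.7, 43.9 and 86.3). None of these genes passed the edgeR test.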
